A study of Mus musculus with 23 samples.

Results

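The epidermal growth factor (EGF) receptor ligands Hbegf, Areg, Ereg, Egf, Btc and Tgfa, the receptor Egfr, its feedback inhibitor Errfi1 and the surface protein gene Plet1 were followed in mouse ileum. The 9 genes were chosen by the array signals of Hbegf and Plet1, which were lower after PCN in mice lacking the pregnane X receptor (PXR), together with the other genes of the EGF receptor system. No p is therefore given for any member in the PCN contrast of the knockout, nor for Hbegf and Plet1 in any contrast but PCN in WT. Where calls of members are counted in those contrasts, the count is a description and supports nothing. Every probe that carried one of the gene names on the array was taken, which gave 19 probes of 56605. Of these, 17 passed the filter on dim probes, and all 9 genes kept at least 1 probe among the 17727 genes tested. The second Btc probe, A_51_P138429, and the third Egf probe, A_55_P2733187, were well above background on 0 of 23 arrays and were not tested.

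Male C57Bl6/J mice were either wild type (WT) or Pxr-/-, and received PCN (pregnenolone-16α-carbonitrile, a rodent PXR agonist) at 100 mg/kg in corn oil by daily injection into the peritoneum for 4 days, or corn oil alone (CONT). Tissue of all 4 groups was taken 6 h after the final injection (ZT6), and whole ileum RNA was hybridised to 1-colour arrays, with 6 CONT and 5 PCN mice among the WT and 6 of each among the Pxr-/-. The WT mice were purchased at 6 weeks of age whereas the Pxr-/- mice, backcrossed to C57Bl/6J, came from a colony bred in house for 10 years, so genotype and origin cannot be told apart. The Pxr-/- allele is constitutive and affects the whole animal. In whole ileum, fewer cells of a type and less RNA per cell cannot be told apart.

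The ligands of the EGF receptor are made as membrane-anchored precursors, and proteases of the ADAM family release them. The receptor then signals through ERK to early response genes such as Fos and Egr1, and induces Errfi1, which binds the receptor and dampens it. In the gut, amphiregulin (Areg) and epiregulin (Ereg) are known for their part in epithelial growth and repair after injury. Hbegf encodes heparin-binding EGF-like growth factor. Plet1 encodes a lipid-anchored glycoprotein first known from the placenta and from progenitor cells of epithelia. Plet1 is no EGF receptor ligand.

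Promoter sequences are shown for the 3 members that held a motif named below before a start. A motif was thus the condition for showing them, and nothing is read from its presence in all 3. They come from RefSeq (build GRCm38.p6), cover the 250 bases before the start, are written 5′ to 3′ on the strand of the gene (plus for all 3), and carry in capitals the letters of the motifs named below. The Plet1 stretch lies at chr9:50494275-50494524, the Areg stretch at chr5:91139349-91139598 and the stretch before the second Errfi1 start at chr4:150854820-150855069.
Plet1: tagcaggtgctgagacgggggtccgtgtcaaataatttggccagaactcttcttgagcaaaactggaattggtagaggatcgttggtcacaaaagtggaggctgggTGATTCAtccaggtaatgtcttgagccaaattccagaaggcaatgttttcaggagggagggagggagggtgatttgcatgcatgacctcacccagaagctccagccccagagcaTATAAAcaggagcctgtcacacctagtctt
Areg: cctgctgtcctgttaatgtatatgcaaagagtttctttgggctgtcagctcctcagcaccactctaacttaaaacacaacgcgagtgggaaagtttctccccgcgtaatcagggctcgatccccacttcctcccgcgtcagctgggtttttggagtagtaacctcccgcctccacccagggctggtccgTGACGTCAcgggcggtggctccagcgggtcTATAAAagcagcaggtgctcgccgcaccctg
Errfi1, second start: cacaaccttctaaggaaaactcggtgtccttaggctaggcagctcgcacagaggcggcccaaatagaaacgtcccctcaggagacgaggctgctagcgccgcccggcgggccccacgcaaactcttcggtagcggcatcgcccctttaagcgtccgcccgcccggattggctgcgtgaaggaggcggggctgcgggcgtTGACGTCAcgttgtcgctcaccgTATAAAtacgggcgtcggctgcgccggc

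Motifs were searched on both strands of 9 promoter entries of 7 members; Hbegf and Ereg were not searched. The AP-1 motif TGANTCA stood 144 to 138 bases before the Plet1 start, and 6.75% of the 32851 promoters of this length held it. The cAMP response element TGACGTCA was found 61 to 54 bases before the Areg start and 51 to 44 bases before the second Errfi1 start, against 1.55% of all promoters. A TATAAA box lay 30 to 25 bases before the Plet1 start, 31 to 26 before Areg and 28 to 23 before the second Errfi1 start (12.4% of all promoters). TATAAA and the other motifs did not overlap in these stretches. Among the entries of Egfr, Egf, Btc and Tgfa and the first start of Errfi1, no letters of these 3 motifs were found. Repeats of the half-site AGNTCA, a kind of element that PXR binds, were also searched at the spacings given next. The direct repeat of the spacing that the authors name for PXR was not among them. Neither the direct repeat with 3 bases between, held by 0.0517% of promoters, nor the everted repeat with 6 bases between, held by 0.0304%, was in any of the 9 windows. A match or its absence describes the letters of these windows only.

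The 23 arrays had median signals of 74 to 106.5 over a median background of 19 to 28.5, and 60.9% to 67.3% of probes were well above background. Each array correlated with its own group at a median r of 0.990 to 0.994 across probes. The ileal epithelium markers were all measured (10 of 10), with Fabp6, the ileal bile acid binding protein, at a log2 signal of 18.37 to 18.53 in the group means. Of 5 colon markers, 3 were measured. Their summed linear signal had a median of 1068 and a highest value of 3391 in Pxr-/- CONT. In Pxr-/- PCN the median was 1066 and the highest value 15610. In WT the highest value was 1064 under CONT and 1142 under PCN. The part of this spread in the differences below was not tested. The Nr1i2 probe, which targets the PXR gene, read 12.13 ± 0.23 (SD, n = 6) in WT CONT and 11.72 ± 0.30 (n = 6) in Pxr-/- CONT with overlapping values, so it does not check the genotype labels. Of the arrays, 3 stood apart in B cell markers: the mean log2 signal of 7 markers was 9.87 in WT PCN replicate 3, 9.83 in WT PCN replicate 2 and 8.43 in Pxr-/- PCN replicate 1, against 6.85 to 7.42 on the others. Levels below are log2 median signals after quantile normalization, and differences are log2 differences fitted by limma with wash batch. A call needed a Benjamini-Hochberg adjusted p no higher than 0.05 together with a change of more than 1.5-fold.

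Hbegf was lowest in the Pxr-/- mice given PCN, and the other 3 groups lay close together. Its brighter probe, A_51_P181565, maps to mm9 chromosome 18, 36664738 to 36664797, at base 2158 of its target transcript. The signal ranged from 9.07 through a median of 10.93 to 11.66 in WT CONT. In WT PCN the 5 arrays read 10.53, 10.25, 9.80, 10.35 and 10.13. In Pxr-/- CONT it ranged from 9.64 (median 10.46) to 11.71, and in Pxr-/- PCN from 8.86 (median 9.19) to 9.61. All 6 Pxr-/- PCN arrays therefore lay below every Pxr-/- CONT and every WT PCN array, while WT CONT replicate 1, at 9.07, lay among the Pxr-/- PCN values.

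The group means of this Hbegf probe were 10.74 ± 0.91 (SD, n = 6) under CONT and 10.21 ± 0.27 (n = 5) under PCN in WT mice, and 10.57 ± 0.68 (n = 6) under CONT and 9.16 ± 0.27 (n = 6) under PCN in Pxr-/- mice. After PCN the signal differed by -0.56 in WT (SE 0.34, limma adjusted p = 0.548), which missed the threshold; the 95% interval ran from -1.26 to 0.13. The difference was -1.40 (SE 0.32) in Pxr-/-, or 2.65-fold lower, and was -1.56 within wash batch 1 and -1.25 within wash batch 2. Pxr-/- PCN also lay 1.02 log2 units below WT PCN (difference -1.02, SE 0.34). Without PCN the genotypes differed by -0.18 (SE 0.32), from 0.32 in wash batch 1 to -0.67 in wash batch 2. The means of this probe in the deposited table were 10.75, 10.19, 10.58 and 9.17 in the same order of groups.

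The dimmer Hbegf probe, A_55_P2731956, targets another Hbegf transcript at mm9 chromosome 18, 36672393 to 36672452, and was well above background on 22 of 23 arrays. It read 6.67 ± 0.41 (n = 6) under CONT and 6.52 ± 0.61 (n = 5) under PCN in WT mice, and 6.74 ± 0.59 (n = 6) under CONT and 5.84 ± 0.40 (n = 6) under PCN in Pxr-/- mice. The deposited means were 6.67, 6.54, 6.73 and 5.83. Pxr-/- PCN again had the lowest mean, although only 5 of its 6 arrays lay below every Pxr-/- CONT array and the values overlapped those of WT PCN. The PCN difference was -0.14 in WT (SE 0.29, limma adjusted p = 0.912) and -0.90 in Pxr-/- (SE 0.27). Over the 23 arrays the 2 probes correlated at r = 0.732.

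**Figure D1:**
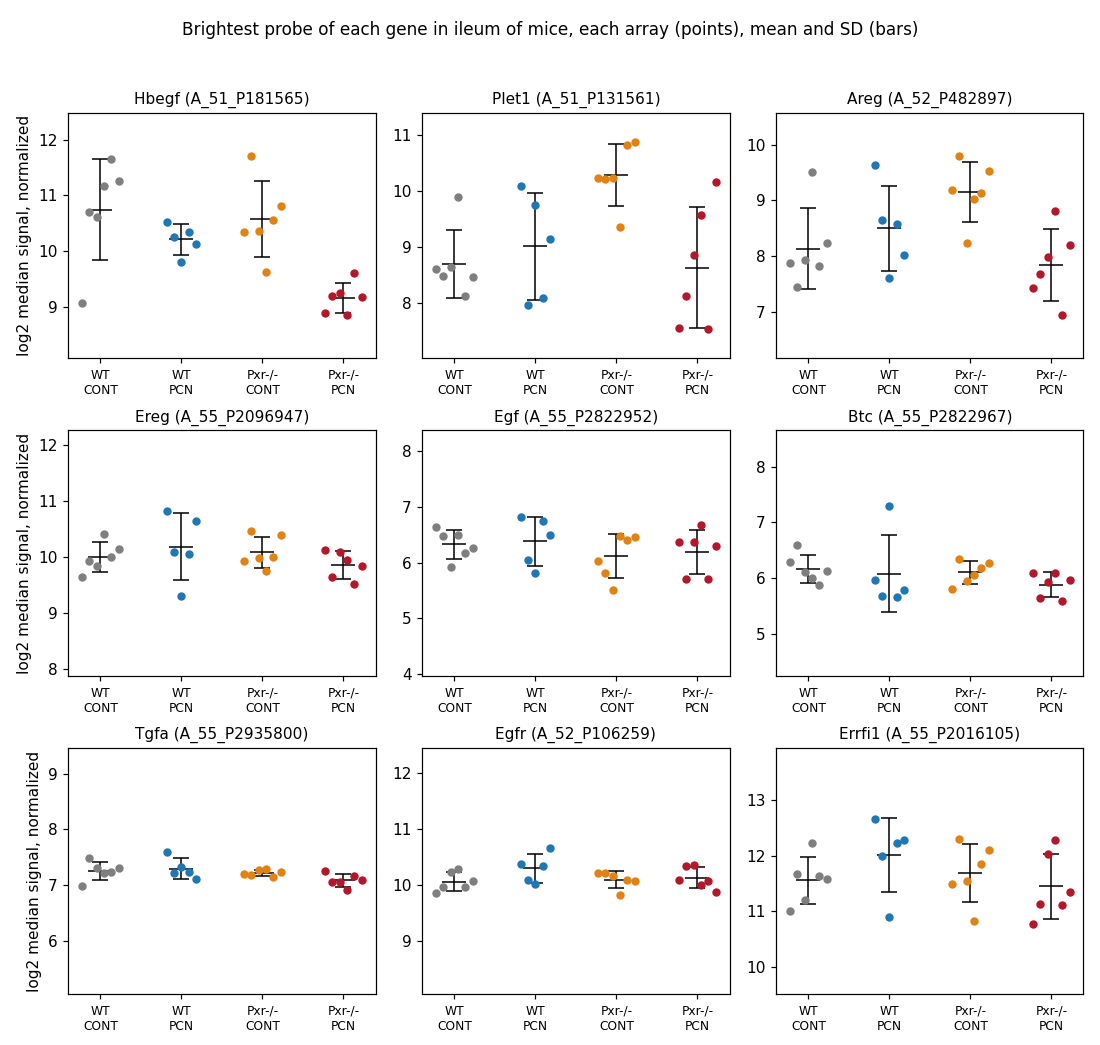
Log2 median signal (normalized) of the brightest probe of each of the 9 genes on every array (points), by group, with the mean and SD as bars; each panel spans the same number of log2 units. Hbegf is lowest in Pxr-/- PCN (8.86 to 9.61), whereas Plet1 and Areg are highest in Pxr-/- CONT (means 10.29 and 9.15).

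Plet1 had another order of groups: it was highest in Pxr-/- CONT, and the other 3 groups lay close together with wide spread. Its brighter probe, A_51_P131561, lies at mm9 chromosome 9, 50313107 to 50313166, at base 1208 of the transcript. The signal ranged from 8.13 (median 8.55) to 9.89 in WT CONT, and the 5 WT PCN arrays read 10.09, 7.97, 9.75, 8.09 and 9.14. In Pxr-/- CONT it ranged from 9.35 (median 10.23) to 10.87. In Pxr-/- PCN it ranged from 7.54 (median 8.48) to 10.16, which is the widest span of the 4 groups. The Pxr-/- groups overlapped, with 4 of 6 PCN arrays below every CONT array. Both PCN groups held arrays near 8 and arrays near 10.

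The means of this Plet1 probe were 8.70 ± 0.61 (SD, n = 6) under CONT and 9.01 ± 0.96 (n = 5) under PCN in WT mice, and 10.29 ± 0.55 (n = 6) under CONT and 8.63 ± 1.09 (n = 6) under PCN in Pxr-/- mice. PCN differed from CONT by 0.32 in WT (SE 0.46, limma adjusted p = 0.859), with a 95% interval from -0.64 to 1.29. The difference in Pxr-/- was -1.66 (SE 0.44), but the wash batches were unequal, with -0.85 in batch 1 and -2.47 in batch 2. Without PCN, Pxr-/- lay 1.59 above WT (SE 0.44), with 1.57 and 1.61 in the 2 wash batches, and 5 of 6 Pxr-/- arrays lay above every WT array. Under PCN the genotypes differed by -0.39 (SE 0.46), but by 0.36 within wash batch 1 and -1.09 within wash batch 2. The means in the deposited table were 8.70, 9.02, 10.28 and 8.62.

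The dimmer Plet1 probe, A_52_P506995, lies at mm9 chromosome 9, 50307294 to 50307353, at base 316 of the same transcript. It followed the brighter one closely, at r = 0.970 over 23 arrays. The probe was well above background in WT on 1 of 6 arrays under CONT and 2 of 5 under PCN, and in Pxr-/- on 6 of 6 under CONT and 3 of 6 under PCN, so it passed the filter on dim probes through Pxr-/- CONT and Pxr-/- PCN, and no difference is given for it. It read 5.42 ± 0.37 (n = 6) under CONT and 5.69 ± 0.71 (n = 5) under PCN in WT mice, and 6.48 ± 0.38 (n = 6) under CONT and 5.42 ± 0.64 (n = 6) under PCN in Pxr-/- mice. The deposited means were 5.43, 5.70, 6.48 and 5.43.

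**Figure D2:**
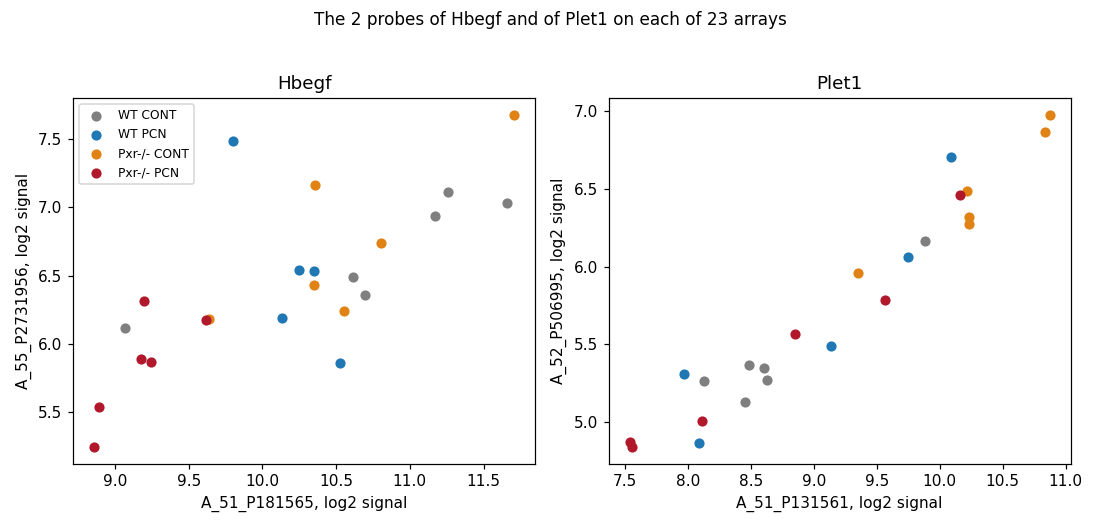
Log2 signal of the brighter probe (horizontal axis) against the dimmer probe (vertical axis) of Hbegf and of Plet1, 1 point for each of 23 arrays, coloured by group. The Plet1 probes lie near 1 line (r = 0.970), and the Hbegf probes scatter more (r = 0.732), with 1 WT PCN array reading 9.80 on the brighter and 7.49 on the dimmer probe.

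Areg, which encodes amphiregulin, showed the order of Plet1 and not that of Hbegf. Its probe A_52_P482897 (mm9 chromosome 5, 91570090 to 91570149) ranged from 7.46 (median 7.90) to 9.52 in WT CONT, and read 9.64, 8.65, 7.60, 8.58 and 8.02 on the WT PCN arrays. In Pxr-/- CONT it ranged from 8.24 (median 9.16) to 9.80, and in Pxr-/- PCN from 6.95 (median 7.83) to 8.80. Pxr-/- CONT thus held the highest median, and 5 of 6 Pxr-/- PCN arrays lay below all of it. The means were 8.14 ± 0.72 (n = 6), 8.50 ± 0.77 (n = 5), 9.15 ± 0.53 (n = 6) and 7.84 ± 0.64 (n = 6) for WT CONT, WT PCN, Pxr-/- CONT and Pxr-/- PCN.

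PCN differed from CONT by 0.37 in WT for Areg (SE 0.38, limma adjusted p = 0.775) and by -1.31 in Pxr-/- (SE 0.36), with -1.09 and -1.53 within the wash batches. Pxr-/- CONT lay 1.01 above WT CONT (SE 0.36), with all 6 arrays above the WT mean, but this missed the threshold over all probes (limma adjusted p = 0.336, unadjusted p = 0.0096). The PCN effect in Pxr-/- was lower than that in WT by a difference of -1.68 (SE 0.52, limma adjusted p = 0.702, unadjusted p = 0.0038), which did not pass either. Under PCN the genotypes differed by -0.66 (SE 0.38, limma adjusted p = 0.822), but by 0.14 within wash batch 1 and -1.31 within wash batch 2.

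The other 4 ligands differed far less between the groups. Egf and Btc were dim, at means of 6.25 and 6.06 over the 23 arrays. The signals were not background-subtracted, so differences of such dim probes may come out too small. Ereg, on mm9 chromosome 5 like Areg and Btc, read 10.00 ± 0.27 (n = 6) under CONT and 10.19 ± 0.60 (n = 5) under PCN in WT mice, and 10.09 ± 0.28 (n = 6) under CONT and 9.86 ± 0.25 (n = 6) under PCN in Pxr-/- mice (probe A_55_P2096947). Its PCN difference was 0.16 in WT (SE 0.19, limma adjusted p = 0.815) and -0.23 in Pxr-/- (SE 0.18). Egf (A_55_P2822952) read 6.33, 6.38, 6.12 and 6.19 in the same order of groups, with SDs of 0.26 to 0.44, and its PCN differences were 0.06 and 0.07. Btc, betacellulin (A_55_P2822967), read 6.17, 6.08, 6.11 and 5.89 with SDs of 0.21 to 0.69, and its PCN differences were -0.07 in WT and -0.22 in Pxr-/-. Tgfa, transforming growth factor alpha (A_55_P2935800), read 7.26, 7.30, 7.22 and 7.09 with SDs of 0.06 to 0.18, and its PCN differences were 0.03 and -0.13. None of these 4 was called in any of the 4 contrasts tested for them (limma adjusted p of 0.562 or more, the lowest being that of Tgfa between the genotypes under PCN at a difference of -0.20). Their 95% intervals for PCN in WT reached at most 0.55 on the log2 scale in either direction, the widest bound being that of Ereg.

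No difference of the receptor or its inhibitor passed the test. Egfr on its brightest probe (A_52_P106259) read 10.06 ± 0.17 (n = 6) under CONT and 10.30 ± 0.26 (n = 5) under PCN in WT mice, and 10.10 ± 0.15 (n = 6) under CONT and 10.13 ± 0.19 (n = 6) under PCN in Pxr-/- mice. PCN differed from CONT by 0.23 in WT (SE 0.11, limma adjusted p = 0.433) and by 0.03 in Pxr-/- (SE 0.11), and the other 3 Egfr probes gave -0.09 to 0.08 in WT and -0.09 to 0.03 in Pxr-/-. Errfi1 (A_55_P2016105) varied widely within groups, at 11.55 ± 0.42 (n = 6), 12.01 ± 0.67 (n = 5), 11.69 ± 0.52 (n = 6) and 11.45 ± 0.58 (n = 6). Its PCN difference was 0.43 in WT (SE 0.30, limma adjusted p = 0.630) and -0.24 in Pxr-/- (SE 0.29). Under PCN the genotypes differed by -0.54 on this Errfi1 probe (SE 0.30, limma adjusted p = 0.815). The dimmer Errfi1 probe, A_55_P2738689, gave a PCN difference of 0.08 in WT (SE 0.16, limma adjusted p = 0.912) and -0.36 in Pxr-/- (SE 0.15). Between the genotypes under PCN it gave -0.23 (SE 0.16, limma adjusted p = 0.925).

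**Figure D3:**
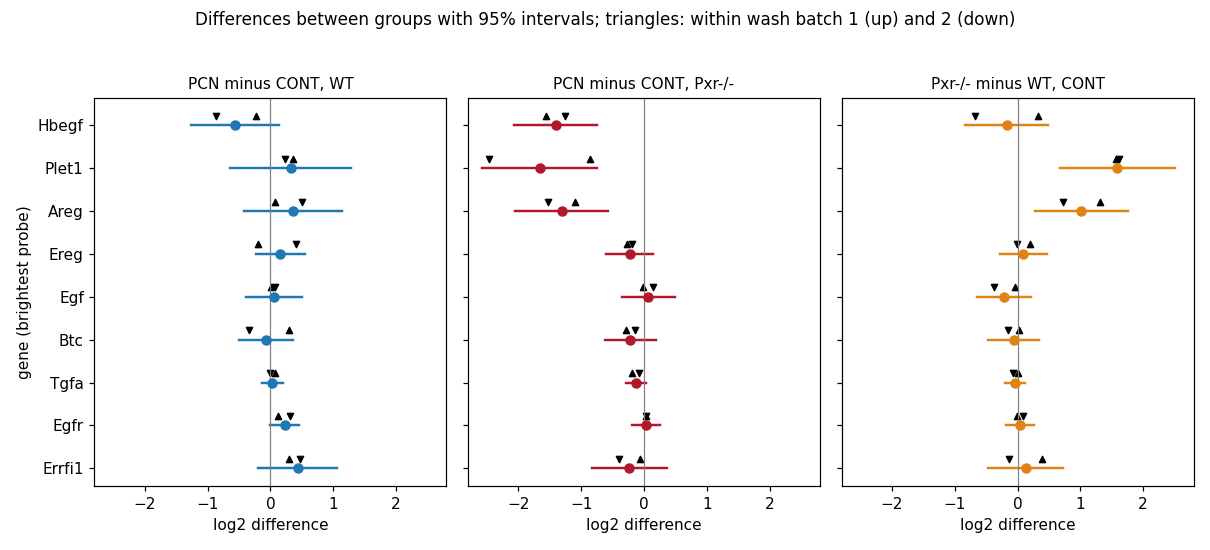
Log2 differences of the brightest probe of each gene for PCN in WT, PCN in Pxr-/- and genotype without PCN, with 95% intervals from limma; triangles give the difference within wash batch 1 (pointing up) and wash batch 2 (pointing down). In Pxr-/-, Hbegf, Plet1 and Areg lie at -1.40, -1.66 and -1.31 and the other 6 genes between -0.24 and 0.07.

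Across the 9 genes, 0 were called for PCN in WT, where 1.16% of all genes tested were called. In Pxr-/-, 3 were called, all lower (Hbegf, Plet1 and Areg), against 1.63% of all genes called in either direction and 0.372% called lower; since Hbegf and Plet1 were listed for this contrast, nothing is read from the count. Of the other 7 members, 0 were called between the genotypes without PCN (0.231% of all genes), between them under PCN (0.581%) or for the difference between the PCN effects (0.13%). The brightest probes of 0 members separated the groups without overlap for PCN in WT (3.52% of all genes did) or for genotype without PCN (1.37%). Hbegf did so in Pxr-/- (3.18%) and between the genotypes under PCN (1.29%). The median difference of the 7 members other than Hbegf and Plet1 was 0.16 for PCN in WT (all genes -0.02), -0.22 in Pxr-/- (all genes 0.00) and -0.22 for genotype under PCN (all genes 0.01).

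The count of calls in Pxr-/- depended on the arrays used. Leaving out the 3 arrays with high B cell markers, a choice made after seeing the data, 0 members were called, at differences of -1.32 for Hbegf, -1.43 for Plet1 and -1.25 for Areg. The count was 1 (Hbegf) without Pxr-/- CONT replicate 1, 2, 5 or 6 or Pxr-/- PCN replicate 1, 2 or 5. Over the 23 fits that each left out 1 array, the brightest probe was called in 23 for Hbegf, 15 for Plet1 and 11 for Areg. Since Hbegf and Plet1 were listed for this contrast, these counts describe the calls and are no support for the contrast. Of the B cell markers, 7 of 7 were higher after PCN in WT with 1 called (Ms4a1, median 1.42; 1.16% of all genes were called), and 5 of 7 were higher in Pxr-/- with 0 called (median 0.47; 1.63% of all genes). Their summed linear signal ran from 1634 to 2283 in WT CONT, 1951 to 13233 in WT PCN, 1478 to 2199 in Pxr-/- CONT and 1573 to 4919 in Pxr-/- PCN. The part of B cells in these differences was not tested.

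Some members varied together within groups and others did not. With group and wash batch effects removed, Areg correlated with Errfi1 at r = 0.748 and with Ereg at r = 0.725 over 23 arrays, and Ereg with Errfi1 at r = 0.760. Plet1 correlated with Areg at r = 0.529 and Hbegf with Plet1 at r = 0.069. Among the ligands, Egf correlated with Areg at r = 0.529. Btc correlated with Areg at r = -0.195 and with Ereg at r = -0.247, and Hbegf with Egf at r = -0.241. These correlations describe whole-tissue samples that share their mixture of cells and their arrays. Hbegf and Plet1 thus varied with little relation to each other within groups.

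By correlation over 23 arrays with wash batch means removed, the genes most like Hbegf were Fos at r = 0.869, the pseudokinase gene Trib1 at 0.843, the claudin gene Cldn4 at 0.826, Insig2 at 0.773 and Rhod at 0.768. Those most like Plet1 were Arhgef10l at r = 0.848, Clic1 at 0.845, the kinase gene Ripk3 at 0.835, the hexokinase gene Hk2 at 0.832 and Sms at 0.828. These arrays include those that chose Hbegf and Plet1. Over the 11 WT arrays alone the lists were different: Hbegf was nearest to Hoxaas2 (r = 0.946), 1110019D14Rik (0.931), Rfxank (0.931), Lrig2 (0.930) and Gm6936 (0.925), and Plet1 to Noxo1 (r = 0.948), Nfkbib (0.900), Hpse (0.881), Gm14137 (0.874) and Fam204a (0.873). The highest of 17727 correlations over only 11 arrays can be this large by selection alone. Nothing is therefore read from these WT genes or from the change of list. Fos, a subunit of the AP-1 factor, read 12.63 ± 0.96 (n = 6) under CONT and 12.29 ± 0.36 (n = 5) under PCN in WT mice, and 12.79 ± 0.67 (n = 6) under CONT and 11.68 ± 0.63 (n = 6) under PCN in Pxr-/- mice. Its lowest mean, like that of Hbegf, was in Pxr-/- PCN, and its own PCN difference there (-1.10) was not called. Fos was named for its likeness to Hbegf over arrays that include those that chose Hbegf. No p is therefore given for Fos in this contrast, and its low mean there is no separate support.

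Around the receptor, 5 lists of 55 genes were followed, of which 50 were measured. For PCN in WT, 2 of the 50 were called, where 1.16% of all genes were. Egr3, an early growth response factor, rose by 0.73 (SE 0.16, limma adjusted p = 0.020), and Lcn2, lipocalin 2, rose by 0.78 (SE 0.16, limma adjusted p = 0.010). Egr3 was not called without WT PCN replicate 3, without WT CONT replicate 5 or without the 3 arrays with high B cell markers. For PCN in Pxr-/-, where 1.63% of all genes were called, 1 of the 50 was, as Lcn2 rose by 0.76 (SE 0.15, limma adjusted p = 0.0072). A count of 1 of 50 lies near that share, and nothing is read from it. None of the 50 was called between the genotypes, without PCN (0.231% of all genes) or under it (0.581%). The difference between the PCN effects had 0 called (0.13%). Lcn2 stood against the rest of its list, the IL-17 and IL-22 responsive genes, of which 9 of 10 were lower after PCN in Pxr-/- (median -0.44, all genes 0.00), led by Duox2 at -1.30 (limma adjusted p = 0.164) and Duoxa2 at -1.28 (limma adjusted p = 0.234), which encode a peroxide-producing oxidase of the epithelium and its maturation factor. For PCN in WT, 5 of these 10 genes were higher and 5 lower (median 0.01, all genes -0.02). Without PCN, 10 of these 10 genes were higher in Pxr-/- than in WT (median 0.46, all genes 0.00), with 0 called.

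The 16 early growth response genes gave a median of 0.18 for PCN in WT, with 13 higher and Egr3 called, and -0.09 in Pxr-/-, with 9 lower and 0 called. Egr1, the classical early response factor, differed by 0.70 in WT (limma adjusted p = 0.38) and -0.42 in Pxr-/- (limma adjusted p = 0.462). For the difference between the PCN effects, 15 of 16 were lower in Pxr-/- (median -0.19, all genes 0.02), and 0 passed the test. The 6 measured receptors and ligands of the wider ErbB family (2 of 8 were not measured), the 6 measured shedding genes (Adam17 among them, at 0.06 in WT and 0.05 in Pxr-/-) and the 12 measured ErbB and ERK inhibitors had 0 called in every contrast. Dusp6, a phosphatase that inactivates ERK, had the largest difference of the inhibitors, -0.76 for PCN in Pxr-/- (limma adjusted p = 0.067).

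**Figure D4:**
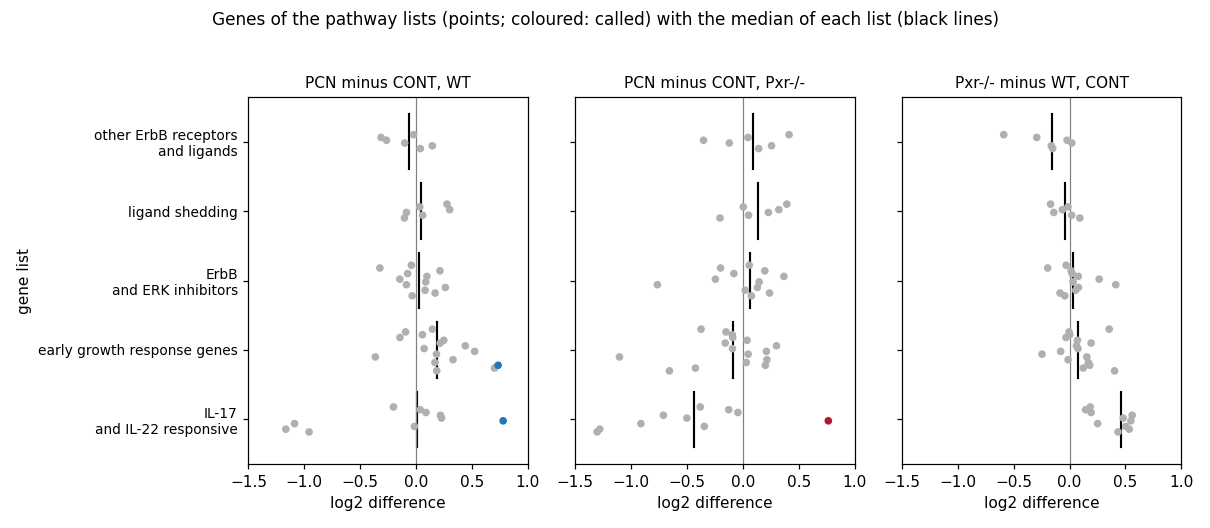
Log2 differences of the measured genes of 5 pathway lists (1 point a gene, brightest probe) for PCN in WT, PCN in Pxr-/- and genotype without PCN; coloured points were called, grey points were not, and black lines are list medians. Egr3 (0.73) and Lcn2 (0.78) stand out in WT, and the IL-17 and IL-22 responsive genes have a median of -0.44 after PCN in Pxr-/- and of 0.46 between the genotypes without PCN.

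Markers of several cell types moved with PCN beside the members. Of all genes, 1.16% were called for PCN in WT and 1.63% in Pxr-/- (0.372% called lower). In Pxr-/-, 6 of 7 goblet cell markers were lower (median -0.46) and 3 were called. Among those called, Agr2, which encodes a chaperone of mucin folding, fell by 0.86 (limma adjusted p = 0.030). The summed linear signal of the goblet cell markers ran from 897372 to 1231084 in CONT and from 593139 to 969852 in PCN. For neutrophils, 5 of 7 markers were higher (median 0.63) and 3 were called, with S100a9 up by 2.91 (limma adjusted p = 0.00105). Their summed linear signal, in which the brightest markers weigh most, overlapped (36479 to 51274 in CONT, 43479 to 50924 in PCN). The mean log2 signal over the 7 markers was 7.69 (SD 0.16) in Pxr-/- CONT and 8.73 (SD 0.47) in Pxr-/- PCN. For smooth muscle, 7 of 7 markers were higher (median 0.48) and 3 were called, with sums of 176378 to 248479 in CONT and 212594 to 393460 in PCN. In WT, 6 of 7 neutrophil markers were higher with 2 called (median 0.58), and 6 of 7 smooth muscle markers were higher with 0 called (median 0.34). There, 0 of 7 goblet cell markers were called (7 of 7 lower, median -0.27). The markers of follicle-associated epithelium, which covers the lymphoid follicles, had 1 of 7 called after PCN in WT (Tnfaip2, which rose by 0.60) and 0 of 7 in Pxr-/-, with medians of 0.54 (6 of 7 higher) and 0.42 (7 of 7 higher). Macrophage markers were higher in 8 of 8 after PCN in both genotypes, with 0 called in WT (median 0.17) and 1 in Pxr-/- (Cd68, median 0.32), and their summed signal ran from 12568 to 17720 under CONT and from 17057 to 19901 under PCN in Pxr-/-. Of 5 mesothelium markers, 1 was called higher in each genotype (Msln), with medians of 0.04 in WT and 0.26 in Pxr-/-. Paneth cell markers had 0 called, at medians of 0.03 in WT (4 of 5 higher) and 0.39 in Pxr-/- (5 of 5 higher). Villus tip markers had 0 called, at medians of -0.14 in WT (3 of 5 lower) and -0.29 in Pxr-/- (4 of 5 lower). Stem cell markers also had 0 called, at medians of -0.14 in WT (4 of 5 lower) and 0.13 in Pxr-/- (4 of 5 higher). No marker of ileal epithelium was called (0 of 10, medians -0.12 in WT and -0.10 in Pxr-/-). The part of these cell types in the differences of Hbegf, Plet1 and Areg was not tested.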

How the data were processed

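Ileum RNA (150 ng) of 23 mice was hybridised to 1-colour Agilent arrays, 1 array a mouse. Per the file headers, Agilent Feature Extraction 10.10.1.1 gave the deposited linear spot intensity (mm9 coordinates). The deposited table of log2 values holds 37161 probes, with every column median at 8.02. For the arrays they report, mainly of another tissue, the authors describe a wash bath correction and CrossNorm normalization. Whether the ileum table was made in the same way was not checked, and its filter rule is not given in the sources used here. The deposited table was used as an alternative and ranked the probes of each array almost as the scanner values did (Spearman 0.9995 or more).

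Median intensities without control and outlier-marked spots were averaged per probe, put on the log2 scale and quantile normalized, leaving 61 probe values missing. Probes well above background on at least 50% of the arrays of 1 group were tested (37591 of 56605). limma 3.58.1 in R 4.3.3 fitted the 4 groups and wash batch, and the Benjamini-Hochberg adjustment ran over all tested probes of a contrast. The fit was tested on simulated data. Gene names came from probe accessions (32994 probes), the array's own name (10224) or an older name (520), and 12867 probes had none. Where several probes of a gene were tested, the brightest on average stands for it, and a gene counts as called if any of its probes was.

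The members, gene lists and tests were chosen with earlier results of these data known. Named by rule were all members, called genes of the pathway lists (up to 3 per list and contrast) and the 5 genes most like Hbegf and Plet1. Adam17, Dusp6, Duox2, Duoxa2, Egr1 and the cell type markers given with values were named after their values were seen. Each array is a separate mouse, and the number of arrays limits the precision. Alternatives were other scalings, background correction, filters, batch and slide terms, the deposited table and leaving out arrays. Replicate numbers did not pair the samples.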

Additional observations from a re-analysis of the deposited data

Results flagged for a closer look

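Of 44 groups of arrays examined for the probes printed, 4 held an array far from the others of its group, and chance alone gives such a group about 5% of the time. WT CONT replicate 4 was the highest of its group for Plet1 on both probes, at 9.89 (the nearest array at 8.63) on A_51_P131561 and 6.17 (nearest 5.37) on A_52_P506995. The same array was the highest for Areg, at 9.52 with the nearest at 8.23. WT PCN replicate 3, which is among the arrays with high B cell markers, was the highest for Btc, at 7.30 with the nearest at 5.98.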

How the results depend on the processing

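Across 13 other settings the PCN difference in Pxr-/- ran from -1.47 to -1.15 for Hbegf, from -1.77 to -1.36 for Plet1 and from -1.44 to -1.21 for Areg, given as a description since this contrast chose Hbegf and Plet1. The number of members called in Pxr-/- was 1 (Hbegf) with the 75th percentile of the processed signal and with no filter, and 0 without the 3 arrays with high B cell markers; leaving out 1 array at a time it was 1 to 3. Between the genotypes, where Hbegf and Plet1 were not tested, it was 1 without PCN (Plet1, with slide as a fixed block or only the 2 groups compared) and 1 under PCN (Hbegf, only the 2 groups compared). Of the pathway list genes, 1 was called in WT with normexp or without the B cell arrays and 4 with no fold threshold, 2 in Pxr-/- with slide as a fixed block and 3 with no fold threshold, and 1 (Nrg4) without PCN with slide as a fixed block. Leaving out 1 array gave 1 to 2 in WT, 1 to 2 in Pxr-/- and 0 to 1 (Nrg4, without WT CONT replicate 4) without PCN; WT fell to 1 without WT PCN replicate 3 or WT CONT replicate 5. The Hbegf difference in WT ran from -0.87 to -0.39 and that of Plet1 from 0.04 to 0.61 over these fits, and in Pxr-/- from -1.57 to -1.13 and from -1.97 to -1.45.

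Leaving out 1 array, the uncalled Areg difference ran from 0.075 to 0.68 for PCN in WT and from -0.93 to -0.37 for genotype under PCN. Uncalled differences near 0 changed sign. For Btc in WT the value was 0.012 with normexp and 0.0029 with slide as a fixed block, and for genotype without PCN 0.022 with the latter. Without the B cell arrays Btc gave 0.021 for genotype under PCN and 0.085 for the difference between PCN effects. For Egf the difference between PCN effects was -0.15 with slide as a fixed block, -0.0064 with slide as a random block, -0.011 with the replicate block and -0.35 without the B cell arrays, and its WT value was -0.017 over the mean of its probes. Leaving out 1 array, PCN in WT ran from -0.054 to 0.22 for Egf, -0.38 to 0.089 for Btc, -0.032 to 0.089 for Tgfa and -0.40 to 0.015 for the second Hbegf probe. Genotype without PCN ran from -0.0012 to 0.083 for Egfr, -0.018 to 0.15 for Ereg, -0.12 to 0.049 for Btc, -0.087 to 0.00037 for Tgfa and -0.024 to 0.29 for Errfi1. Genotype under PCN ran from -0.37 to 0.10 for Btc, and the difference between PCN effects from -0.15 to 0.12 for Egf and -0.31 to 0.16 for Btc. The cause was not tested for any of these.

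Of 33 pairs of arrays with the same replicate number, 6 correlated above 0.1 (-0.243 to 0.476), so the numbers do not pair the samples. With the replicate block 2 members were called in Pxr-/- (Hbegf and Areg), and no other count of member or pathway calls changed. The second Plet1 probe was well above background on 12 of 23 arrays, so its values have no firm level on the others.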
